A study of Mus musculus with 2 samples.

Results

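The 40 genes described here encode the chaperones, sensors, transcription factors and degradation factors of the unfolded protein response, together with cytosolic and mitochondrial heat shock proteins. They were chosen by name, with earlier results of these data known, and all 40 were found among the 32285 genes of the deposited matrices. The cells were macrophages sorted as CD45⁺CD11b⁺CD64⁺ from the infarct and border zones of mouse hearts 3 days after myocardial infarction (MI). The 2 groups, each with 1 library and each with an infarct, were wild type (WT) and CD40 knockout (CD40 KO). The age and strain of the mice, the CD40 allele and the number of mice behind each library are not stated in those sources that were used here. The series asks, by its title, about CD40 and the clearance of dying cells by macrophages.

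Proteins that are secreted or placed in membranes fold in the endoplasmic reticulum (ER). When unfolded proteins build up there, the sensors IRE1, PERK and ATF6 act through the transcription factors XBP1, ATF4 and cleaved ATF6 to raise ER chaperones, protein disulfide isomerases and the machinery of ER-associated degradation, which sends misfolded proteins to the proteasome. The heat shock response is a separate programme in which HSF1 raises chaperones of the cytosol and mitochondria. Macrophages that take up dying cells make and degrade large amounts of secreted and lysosomal protein, and tissue digestion and sorting are themselves known to raise heat shock genes.

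The ER stress response element (ERSE) is the short promoter sequence through which ATF6, with NF-Y, and XBP1 act, and it is shown because it is the element most often found in these genes among those searched. Of the 13 members called between the libraries below, 3 hold it. Promoter windows of 250 bases before to 50 bases after the start were available for 33 members (RefSeq, mouse build GRCm38.p6). The element, searched on both strands as CCAAT and CCACG with 9 bases of any kind between them, was found in 8 of these 33 genes, against 0.137% of the 27025 genes with a window. Each match is given below on its own strand, 5′ to 3′, with the fixed letters of the element in capitals.

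Hspa5: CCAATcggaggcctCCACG

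Hsp90b1, upstream match: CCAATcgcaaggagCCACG

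Hsp90b1, downstream match: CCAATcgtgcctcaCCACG

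Dnajc3: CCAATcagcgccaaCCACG

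Creld2: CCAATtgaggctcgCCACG

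Pdia6: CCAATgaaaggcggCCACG

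Calr: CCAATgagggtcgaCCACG

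Canx: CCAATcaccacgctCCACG

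Syvn1: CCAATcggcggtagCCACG

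All of these matches lay before the start of the gene, from 212 bases before it (*Hsp90b1*, whose first base is at −212) to 26 bases before it (*Syvn1*, whose last base is at −26). The related ERSE-II, searched as ATTGG and CCACG with 1 base between them, was found in 2 members against 0.0444% of genes with a window. These were *Dnajb11* and *Herpud1*, and neither window held a match to the ERSE as well. Both patterns needed every fixed letter, and looser forms were not searched.

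Dnajb11: ATTGGcCCACG

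Herpud1: ATTGGgCCACG

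The 250 bases before the start are shown for 4 genes with an ERSE and for *Herpud1*, since *Pdia6*, *Creld2* and *Hsp90b1* were lower in the CD40 KO-labelled library, *Hspa5* differed little and *Herpud1* was higher. Capitals mark the elements as they read on the strand of the gene. In *Herpud1* the first run of capitals is a C/EBP-ATF element, TGATGNAA, on the opposite strand, and the second is the ERSE-II.

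Hspa5, chr2:34771840-34772089, plus strand: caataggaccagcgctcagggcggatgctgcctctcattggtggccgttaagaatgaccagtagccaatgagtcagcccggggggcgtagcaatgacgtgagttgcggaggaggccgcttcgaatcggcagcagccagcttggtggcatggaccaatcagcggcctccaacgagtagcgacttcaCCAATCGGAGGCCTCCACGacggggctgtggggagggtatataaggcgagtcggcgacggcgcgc

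Hsp90b1, chr10:86705445-86705694, minus strand: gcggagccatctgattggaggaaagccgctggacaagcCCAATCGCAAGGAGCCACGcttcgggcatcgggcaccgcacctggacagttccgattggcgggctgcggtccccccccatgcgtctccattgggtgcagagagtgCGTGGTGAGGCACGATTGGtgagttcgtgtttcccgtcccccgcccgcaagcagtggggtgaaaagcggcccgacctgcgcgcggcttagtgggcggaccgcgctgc

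Pdia6, chr12:17266339-17266588, plus strand: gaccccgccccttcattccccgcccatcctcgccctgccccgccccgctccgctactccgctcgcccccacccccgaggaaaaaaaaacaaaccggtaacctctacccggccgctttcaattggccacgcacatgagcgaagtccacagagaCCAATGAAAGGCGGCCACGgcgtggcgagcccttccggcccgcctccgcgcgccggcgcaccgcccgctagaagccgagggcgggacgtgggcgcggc

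Creld2, chr15:88819396-88819645, plus strand: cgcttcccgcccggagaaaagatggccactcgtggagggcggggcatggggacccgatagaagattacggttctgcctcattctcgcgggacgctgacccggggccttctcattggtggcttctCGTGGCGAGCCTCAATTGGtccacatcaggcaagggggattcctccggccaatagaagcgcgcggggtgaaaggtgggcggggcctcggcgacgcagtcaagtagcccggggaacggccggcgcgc

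Herpud1, chr8:94386179-94386428, plus strand: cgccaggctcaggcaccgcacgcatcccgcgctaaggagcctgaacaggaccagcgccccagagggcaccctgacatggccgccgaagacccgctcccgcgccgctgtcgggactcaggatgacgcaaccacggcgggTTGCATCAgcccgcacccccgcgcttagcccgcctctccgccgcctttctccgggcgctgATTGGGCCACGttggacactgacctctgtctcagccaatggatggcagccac

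The C/EBP-ATF element, through which ATF4 and its partners act, was found in *Trib3*, *Chac1*, *Asns* and *Herpud1*, which is 12.1% of members with a window against 4.51% of genes. A heat shock element, searched as GAA, TTC and GAA (or TTC, GAA and TTC) with 2 bases between neighbours, was found in *Hsph1* and *Hspe1*, against 0.662% of genes. The windows of *Hspa1a*, *Hspa1b*, *Dnaja1* and *Dnajb1* held no match to this pattern, which needs every fixed letter, and looser forms were not searched. The letters TGACGTGG, a core bound by XBP1, were found in none of the 33 windows and in 0.714% of genes. A match describes the letters only and does not show that a factor binds there.

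Asns, C/EBP-ATF element: TGATGaAA

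Hsph1, heat shock element: GAActTTCcaGAA

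Hspe1, heat shock element: GAAccTTCcgGAA

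The WT library held 10624 barcodes and 139343516 UMIs (unique molecular identifiers, 1 per counted molecule), and the CD40 KO-labelled library held 8146 barcodes and 90057108 UMIs. Filters and the removal of doublets left 7191 and 7399 barcodes, and the libraries shared 23 barcode sequences, of which 11 were kept in both. Macrophage-like cells, named from markers, were 5 clusters with 5121 barcodes in WT and 2327 in the CD40 KO-labelled library. All 19 macrophage markers stood at 10 CPM or more in both, but they summed to 32453 CPM in WT and 19303 CPM in the CD40 KO-labelled library. *Cd40* itself stood at 17.6 CPM (16.7 to 18.6) and 15.6 CPM (14.5 to 16.8). Reads come from transcript 3′ ends, and where they lie relative to the altered part of the gene was not examined. These values therefore do not check the knockout. Cluster 13, led by *Mt1* and *Crip1*, held 4374 barcodes of the CD40 KO-labelled library and 26 of WT. Cluster 6, which carried macrophage and neutrophil genes together, held 886 and 178. Both were kept out of the macrophage-like cells, cluster 13 because it came almost wholly from 1 library. Cluster 13 made up 59.1% of the CD40 KO-labelled barcodes left after filters and doublet removal. The macrophage-like cells were 31.5% of that library's remaining barcodes, against 71.2% for WT. A macrophage marker gate applied to each barcode took in 97.3% (7196) for CD40 KO and 89.0% (6398) for WT. Most of cluster 13 therefore passed this gate, although it is not in the class described here. With 1 library in each group there is no replicate check, and groups were not tested against each other. The intervals given are exact 95% intervals that cover counting error only, and a gene is called higher or lower here when its ratio passed 1.3-fold.

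In macrophage-like cells the ER chaperones and their oxidoreductases were mostly lower in the CD40 KO-labelled library, while the inducible HSP70 genes, *Hsph1* and *Herpud1* were higher. Of the 40 genes 37 were measured, which means a mean of 10 CPM or more (UMIs per 1000000 UMIs of those cells). *Trib3*, *Chac1* and *Asns* were below that level. Among the 37, 4 were at least 1.3-fold higher, against 20.1% of all measured genes. A further 9 were at least 1.3-fold lower, against 10.6% of all measured genes, and 24 lay between. The median log2 ratio of the 37 genes, CD40 KO over WT, was −0.11, and that of all 7584 measured genes was 0.097. With median-of-ratios scaling 3 members were higher and 12 lower, so the share of higher among called members went from 30.8% to 20%. Over all measured genes that scaling gave 13.5% higher and 15.6% lower, since it shifts every ratio by the same amount. The UMIs of the ER chaperones and isomerases summed to 5124 CPM in WT and at 3816 CPM in the CD40 KO-labelled library, and those of the heat shock proteins to 2736 and 2858 CPM.

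**Figure D1:**
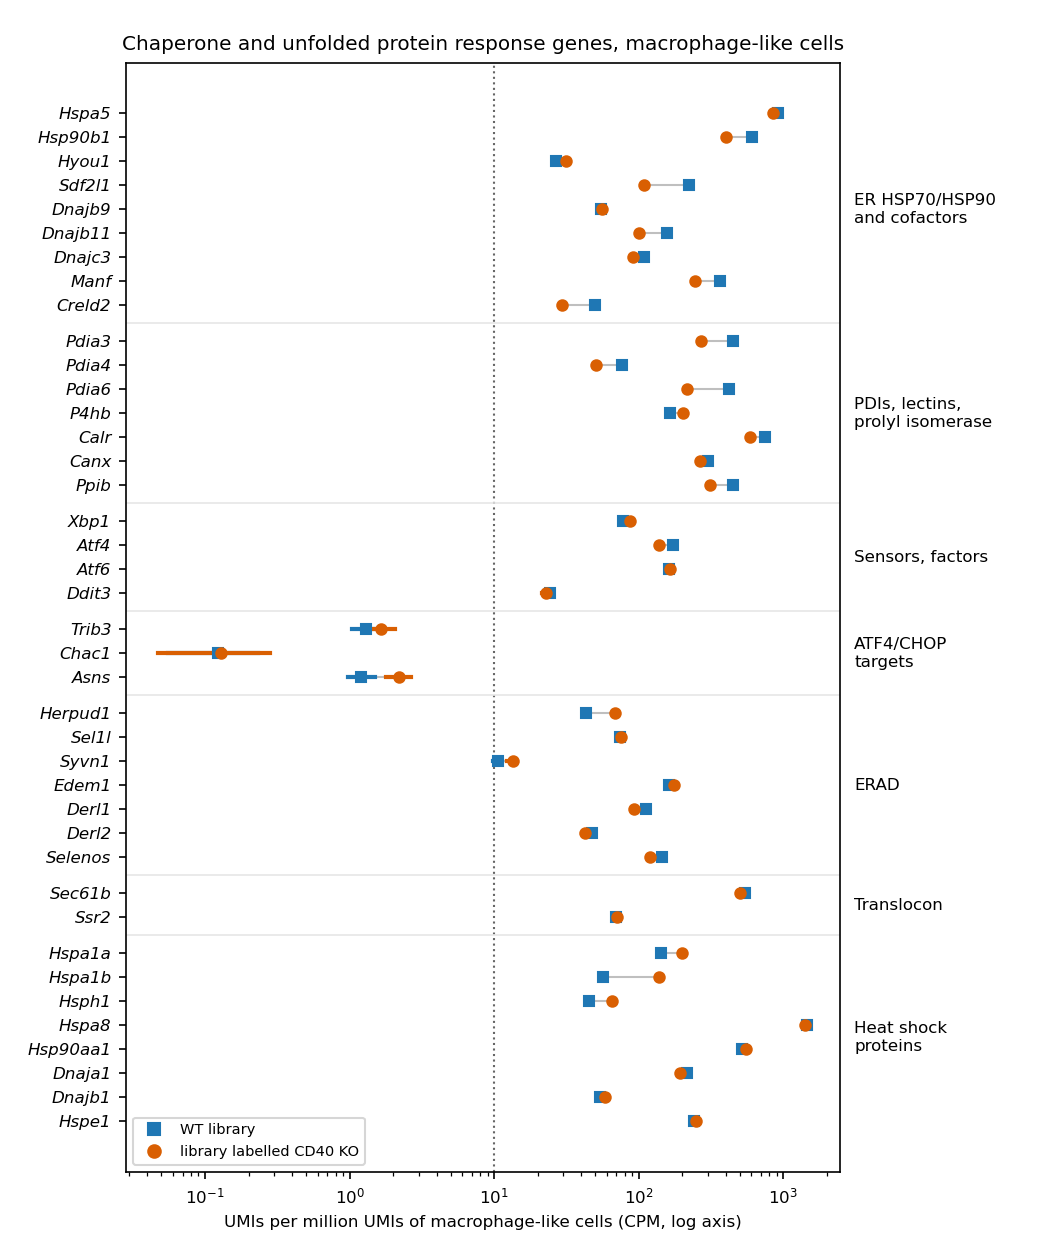
Levels of the 40 genes in macrophage-like cells of each library, as CPM on a log axis, grouped by role. Squares are the WT library and circles the CD40 KO-labelled library, thick bars are exact Poisson 95% intervals (hidden behind most points), and the dotted line marks 10 CPM. *Sdf2l1*, *Pdia6* and *Pdia3* sit to the left in the CD40 KO-labelled library, and *Hspa1b* and *Herpud1* to the right.

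Among the 9 HSP70 and HSP90 chaperones of the ER and their cofactors, 5 were lower, none was higher, and the median log2 ratio was −0.57. *Hspa5* (BiP, the main HSP70 of the ER) stood at 922 CPM (915 to 929) in WT, against 846 CPM (838 to 855) in the CD40 KO-labelled library, a log2 ratio of −0.12 (−0.14 to −0.11). *Hsp90b1* (GRP94, the HSP90 of the ER) stood at 605 CPM (599 to 610) and 402 CPM (396 to 408), a log2 ratio of −0.59 (−0.62 to −0.57). The ratio was therefore well below that of *Hspa5*, although both genes hold an ERSE.

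The lowest ratio of the measured members belonged to *Sdf2l1*, which forms a complex with BiP and its J-domain partners. It stood at 221 CPM (218 to 224) in WT, against 109 CPM (106 to 112) in the CD40 KO-labelled library, a log2 ratio of −1.02 (−1.07 to −0.98). *Dnajb11*, the J-domain partner ERdj3, stood at 157 and 100.2 CPM, a log2 ratio of −0.65 (−0.70 to −0.60). *Manf*, a secreted factor that stabilises BiP-client complexes, stood at 367 and 247 CPM, a log2 ratio of −0.57 (−0.61 to −0.54). *Creld2*, an oxidoreductase-like ER stress protein, stood at 49.7 and 29.7 CPM, a log2 ratio of −0.75 (−0.84 to −0.66). The remaining 3 genes of this role, *Hyou1* (the nucleotide exchange factor GRP170), *Dnajb9* (ERdj4) and *Dnajc3* (p58IPK), had log2 ratios of 0.25, 0.042 and −0.25, within 1.3-fold. Cofactors of BiP thus lay on both sides of BiP itself.

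Among the 7 disulfide isomerases, lectin chaperones and the prolyl isomerase, 4 were lower, none was higher, and the median log2 ratio was −0.53. *Pdia6* stood at 422 CPM (417 to 427) in WT, against 216 CPM (211 to 220) in the CD40 KO-labelled library, a log2 ratio of −0.97 (−1.001 to −0.94). *Pdia3* (ERp57, which works with calreticulin and calnexin on glycoproteins) stood at 448 and 271 CPM, a log2 ratio of −0.72 (−0.75 to −0.69). *Pdia4* (ERp72) stood at 77.1 and 50.9 CPM, a log2 ratio of −0.60 (−0.67 to −0.53). *Ppib*, the prolyl isomerase cyclophilin B, stood at 451 and 313 CPM, a log2 ratio of −0.53 (−0.56 to −0.50). *P4hb*, protein disulfide isomerase itself, had the other sign at 165 and 202 CPM, a log2 ratio of 0.29 (0.25 to 0.33). *Calr* (calreticulin) stood at 747 and 585 CPM, a log2 ratio of −0.35 (−0.37 to −0.33), just within 1.3-fold, and −0.45 with median-of-ratios scaling. *Canx* (calnexin) stood at 303 and 266 CPM, a log2 ratio of −0.18.

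None of the 4 sensor and transcription factor genes passed 1.3-fold. *Xbp1*, whose RNA is spliced by IRE1, stood at 77.3 CPM (75.3 to 79.4) in WT, against 86.7 CPM (84.0 to 89.4) in the CD40 KO-labelled library. These counts hold both the spliced and the unspliced form, which the assay does not tell apart. *Atf4*, which is controlled mainly through its translation, stood at 172 CPM (169 to 175) and 138 CPM (135 to 142), a log2 ratio of −0.32. *Atf6* stood at 162 and 165 CPM. *Ddit3* (CHOP, a factor of prolonged ER stress) stood at 24.4 CPM (23.3 to 25.6) and 22.8 CPM (21.4 to 24.2), a log2 ratio of −0.10 (−0.21 to 0.0081). The 2 intervals of *Ddit3* overlap.

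The 3 targets of ATF4 and CHOP were near the lower end of detection in macrophage-like cells. *Asns* (asparagine synthetase) had 89 UMIs, 1.21 CPM (0.971 to 1.49), in WT and 101 UMIs, 2.19 CPM (1.78 to 2.66), in the CD40 KO-labelled library. *Trib3*, a pseudokinase, had 95 and 76 UMIs. *Chac1*, which degrades glutathione, had 9 and 6 UMIs. They were not counted as measured, and their intervals are wide.

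Of the 7 genes of ER-associated degradation 1 was higher and none was lower. *Herpud1* (HERP, which organises the ubiquitin ligase complex at the ER membrane) stood at 43.1 CPM (41.6 to 44.6) in WT, against 69.0 CPM (66.7 to 71.5) in the CD40 KO-labelled library, a log2 ratio of 0.68 (0.61 to 0.75). The other 6 genes had log2 ratios from −0.29 for *Selenos* to 0.34 for *Syvn1*, the ligase HRD1. *Sel1l*, the adaptor of HRD1, stood at 74.5 and 75.7 CPM. *Sec61b* and *Ssr2*, subunits of the translocon through which new proteins enter the ER, had log2 ratios of −0.11 and 0.014. None of these 9 genes was at least 1.3-fold lower, unlike 9 of the 16 folding genes.

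Of the 8 heat shock proteins of cytosol and mitochondria 3 were higher and none was lower. *Hspa1b*, 1 of the 2 stress-induced HSP70 genes, stood at 56.3 CPM (54.6 to 58.0) in WT, against 139 CPM (135 to 142) in the CD40 KO-labelled library, a log2 ratio of 1.302 (1.25 to 1.36). *Hspa1a*, the other, stood at 144 CPM (141 to 146) and 198 CPM (194 to 202), a log2 ratio of 0.46 (0.42 to 0.50). The *Hspa1a* ratio was past 1.3-fold under 12 of 16 alternatives that can change a ratio, but was 0.19 when every barcode weighed the same and 0.25 when barcodes were thinned to 3000 UMIs. *Hsph1* (HSP110, an exchange factor for HSP70) stood at 45.5 CPM (43.9 to 47.0) and 65.5 CPM (63.1 to 67.8), a log2 ratio of 0.53 (0.45 to 0.60). Of 19 immediate early genes and genes known to respond to tissue dissociation, 1 was higher and 7 were lower in the same cells, against 20.1% and 10.6% of all measured genes, with a median log2 ratio of −0.21. *Nr4a1* was highest at 0.68 and *Klf2* and *Egr1* lowest at −0.96 and −0.75. Their part in the heat shock values was not tested.

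The other 5 heat shock genes differed less in the class as a whole. *Hspa8* (HSC70, the housekeeping HSP70) stood at 1463 CPM (1454 to 1471) in WT, against 1403 CPM (1392 to 1414) in the CD40 KO-labelled library. *Hsp90aa1* (an HSP90 of the cytosol) stood at 518 CPM (513 to 523) and 553 CPM (546 to 560). *Hspe1* (the mitochondrial HSP10) stood at 241 CPM (238 to 245) and 248 CPM (244 to 253). *Dnaja1* and *Dnajb1*, J-domain partners of HSP70, had log2 ratios of −0.15 and 0.11. All 5 lay within 1.3-fold in the class. Over its 5 clusters their log2 ratios ranged more widely, from −0.50 for *Dnaja1* to 0.83 for *Dnajb1*. In the 500 bases at the 3′ end of the transcript, 81.8% of the 50-base stretches of *Hspa8*, 53.2% of those of *Hspe1* and 46.8% of those of *Sec61b* were also found in transcripts of other genes. The counts of these 3 genes are therefore uncertain. No such stretch was shared between *Hspa1a* and *Hspa1b*.

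The clusters that make up the macrophage-like cells were in different proportions in the libraries, so the ratios were taken again within each of the 3 large ones. Cluster 1 was led by *Fabp5*, *Gpnmb* and *Lpl*, genes of lipid-associated macrophages, with 2511 and 284 barcodes. Cluster 2 was led by *Plac8* and *Ly6c2*, genes of monocytes, with 1539 and 1158, and cluster 3, among whose leading genes were *Mrc1* and *Arg1*, held 758 and 538. The lower ER genes were seen in each of them. *Sdf2l1*, *Dnajb11*, *Manf*, *Creld2*, *Pdia3* and *Pdia6*, 6 of the 37 members measured, were 1.3-fold or more lower in all 3 clusters, against 3.26% of all genes measured in the 3. None was at least 1.3-fold higher in all 3, against 4.97% of those genes.

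In cluster 1, 7 members were higher, against 13.8% of measured genes, and 7 were lower, against 7.01%. Cluster 2 had 3 higher, against 16.4%, and 13 lower, against 14.2%. In cluster 3, 3 were higher, against 10.5%, and 7 were lower, against 8.91%. *Pdia6* stood at 437 CPM in WT and at 254 CPM in the CD40 KO-labelled library in cluster 1, at 441 and 212 CPM in cluster 2, and at 371 and 222 CPM in cluster 3. *Sdf2l1* stood at 237 and 144 CPM, 217 and 93.3 CPM, and 188 and 116 CPM in the same order. For both genes each of these 3 clusters in the CD40 KO-labelled library was below all 3 in WT. *Hspa5* had log2 ratios of 0.053, −0.13 and −0.17.

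Of the 3 heat shock genes that were higher in the class, *Hspa1a* changed sign between clusters, while *Hspa1b* and *Hsph1* had ratios above 0 in all 5 clusters of the class. *Hspa1b* stood at 28.7 CPM in WT and at 153 CPM in the CD40 KO-labelled library in cluster 1, a log2 ratio of 2.42 (2.28 to 2.56). In cluster 2 it stood at 107 and 111 CPM, a log2 ratio of 0.064 (−0.025 to 0.15), and in cluster 3 at 71.9 and 135 CPM, a log2 ratio of 0.91 (0.79 to 1.03). *Hspa1a* had log2 ratios of 1.22 (1.13 to 1.31), −0.44 (−0.51 to −0.37) and 0.41 (0.32 to 0.49) in the same order. In WT *Hspa1b* ranged from 28.7 to 107 CPM over the 3 clusters, and in the other library from 111 to 153 CPM, so the WT values were the more spread. *Hsph1* had ratios of 1.16, 0.14 and 0.81. Without cluster 2 the *Hspa1a* ratio of the class was 0.91 and that of *Hspa1b* 1.97. Immediate early and dissociation genes had median log2 ratios of 0.15, −0.28 and −0.43 in clusters 1, 2 and 3, and their part in the HSP70 values of each cluster was not tested.

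**Figure D2:**
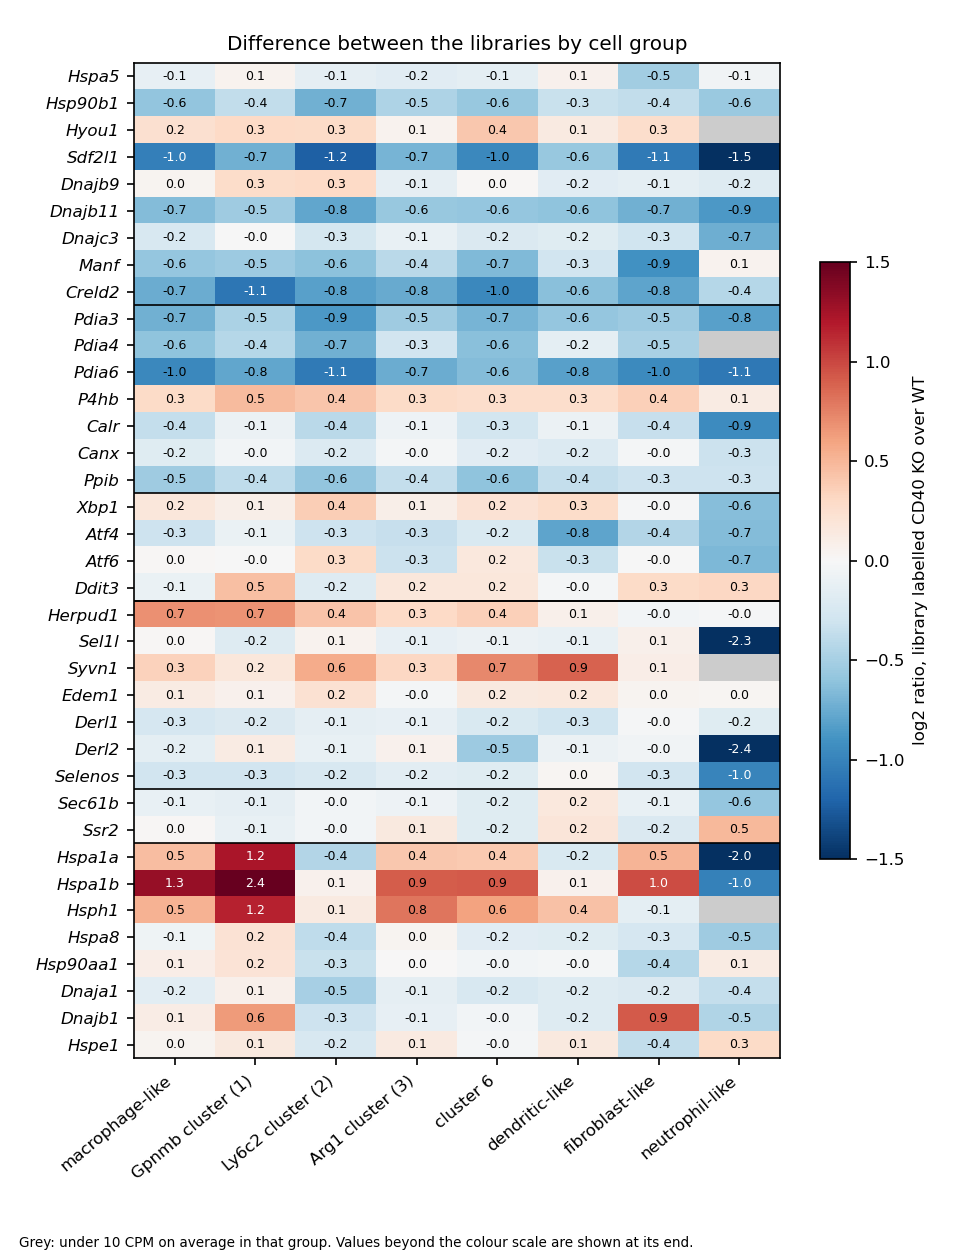
Log2 ratio of CPM, CD40 KO-labelled library over WT, for the 37 members measured in macrophage-like cells (rows, grouped by role) in the class, its 3 large clusters, cluster 6 and 3 other cell types (columns). Blue is lower and red higher in the CD40 KO-labelled library, and grey is under 10 CPM. *Sdf2l1*, *Dnajb11*, *Creld2*, *Pdia3* and *Pdia6* are blue in every column, while *Hspa1a* and *Hspa1b* change colour between columns.

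The lower ER genes were not limited to macrophage-like cells. In the dendritic-like cells (244 and 220 barcodes) 6 of 37 measured members were lower, against 16.9% of measured genes, and 2 were higher, against 11.8%. In fibroblast-like cells (132 and 83 barcodes) 10 of 38 were lower, against 28.7%, and 3 were higher, against 17.6%. In neutrophil-like cells (303 and 63 barcodes) 19 of 33 were lower, against 34.8%, and 1 was higher, against 28.5%. In cluster 6, 10 of 37 were lower, against 15.5%, and 5 were higher, against 23.6%. Apart from the neutrophil-like cells and cluster 6, these shares of lower members were close to or a little below those of all genes, so the counts alone do not set the members apart there.

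The same 5 genes were lower in every one of these groups. *Sdf2l1*, *Dnajb11*, *Creld2*, *Pdia3* and *Pdia6* were at least 1.3-fold lower in clusters 1, 2, 3 and 6 and in dendritic-like, fibroblast-like and neutrophil-like cells, 5 of the 33 members measured in all 7 groups, against 1.54% of the 5390 genes measured in all 7. No member was higher in all 7, against 1.56% of genes. *Pdia6* stood at 313 CPM in WT and at 177 CPM in the CD40 KO-labelled library in dendritic-like cells, a log2 ratio of −0.82 (−0.95 to −0.69). In fibroblast-like cells it stood at 734 and 380 CPM, a log2 ratio of −0.95 (−1.07 to −0.84). In neutrophil-like cells it rested on 67 and 8 UMIs, and *Sdf2l1* there on 23 and 2 UMIs, so those ratios are loose. Outside the 7 groups, the small cluster 8 had *Pdia6* higher, on 14 and 50 UMIs, a log2 ratio of 1.20 (0.33 to 2.17). *Dnajb11*, *Creld2* and *Sdf2l1* had ratios of 0.95, 0.78 and 0.75 there, with intervals that span no difference, and *Pdia3* one of −0.011. In the small cluster 5 the same genes had ratios from −1.38 for *Pdia6* to −0.19 for *Creld2*. The groups come from the same 2 libraries and are not replicates of each other, and a difference that a whole library carries cannot be told apart from one of the genotype.

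*Hspa5* had log2 ratios of 0.069 in dendritic-like, −0.52 in fibroblast-like and −0.054 in neutrophil-like cells. *Hspa1b* was higher in fibroblast-like cells, at 68.8 and 136 CPM, and differed little in dendritic-like cells, at 177 and 186 CPM. *Atf4* was 183 CPM in WT and at 106 CPM in the CD40 KO-labelled library in dendritic-like cells, a log2 ratio of −0.79 (−0.96 to −0.62), which passed 1.3-fold there and not in macrophage-like cells. Whether this differs between cell types was not tested.

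Within each library the cell types also differed from each other in these genes. Fibroblast-like cells, which secrete matrix, held more of 19 of 38 measured members than macrophage-like cells in both libraries, against 30.1% of genes, and less of 2, against 25.2%. *P4hb*, which is also a subunit of the collagen prolyl hydroxylase, stood at 380 and 487 CPM in fibroblast-like cells of WT and of the CD40 KO-labelled library, against 165 and 202 CPM in macrophage-like cells. *Hsp90b1* stood at 1221 and 948 CPM, against 605 and 402 CPM. *Asns* stood at 33.2 and 28.2 CPM there, against 1.21 and 2.19 CPM in macrophage-like cells. The 2 genes that were lower in fibroblast-like cells were *Sdf2l1*, at 78.8 and 37.7 CPM, and *Edem1*, which hands misfolded glycoproteins to degradation, at 77.9 and 80.02 CPM against 161 and 176 CPM.

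Neutrophil-like cells held less of 27 of 36 measured members in both libraries, against 40% of genes, and more of 4, against 21.7%. The 4 were *Dnajb9*, *Ddit3*, *Herpud1* and *Derl1*, the last a channel component of ER-associated degradation. *Dnajb9* stood at 153 and 134 CPM against 54.5 and 56.1 CPM in macrophage-like cells, and *Ddit3* at 66.2 and 82.4 CPM against 24.4 and 22.8 CPM. *Hspa5* stood at 449 and 433 CPM, below its level in macrophage-like cells, and *Calr* at 139 and 72.1 CPM. *Ddit3* and *Dnajb9* thus had the opposite order to *Hspa5* and *Calr*. Neutrophil-like barcodes were shallow, with medians of 2359 and 2949 UMIs.

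Among these named cell types, dendritic-like cells were closest to macrophage-like cells. In both libraries 4 of 36 members were higher and 4 lower, near the 11.7% and 13.7% of all genes. The higher ones were *Herpud1*, *Hspa1a*, *Hspa1b* and *Dnaja1*, and the lower ones *P4hb*, *Canx*, *Xbp1* and *Derl2*. *Herpud1* stood at 139 and 147 CPM against 43.1 and 69.0 CPM in macrophage-like cells. Its level was lowest in cluster 1, at 32.2 and 51.1 CPM. It was the only member at least 1.3-fold lower in cluster 1 than in the rest of the macrophage-like cells in both libraries, against 14.4% of genes. No member was higher in cluster 1 in both libraries, against 4.18% of genes. In cluster 2 *Hsph1* alone was lower, against 9.63%, and none was higher, against 10.8%. In cluster 3 none was lower, against 0.602%, or higher, against 1.41%.

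The unnamed clusters and the barcodes left out were compared with macrophage-like cells in the same way. In cluster 6 none of 36 members was higher than in macrophage-like cells in both libraries, against 5.09% of genes, and none was lower, against 0.837%. Cluster 8, a shallow group led by *Gm26917* (69 and 64 barcodes), had 11 of 37 members higher, against 24.3%, and 8 lower, against 20.5%. *Atf4* stood there at 512 and 502 CPM and *Dnajb9* at 494 and 362 CPM. Cluster 5, also shallow (135 and 54 barcodes), had 5 higher, against 11.2%, and 6 lower, against 39.3%. Barcodes left out for more than 10% mitochondrial UMIs (983 and 214) had 18 of 37 members lower, against 26.8%, and 2 higher, *Dnajb9* and *Hspa1b*, against 16.1%. In cluster 13 of the CD40 KO-labelled library 6 of 37 members were higher, against 13.9%, and 8 were lower, against 50.5%. *Hspa1a* was seen there in 54.9% (52.9 to 56.9) of 2399 thinned barcodes, against 28.5% (26.7 to 30.4) of macrophage-like ones of that library, and in 70.9% and 60.6% without thinning.

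**Figure D3:**
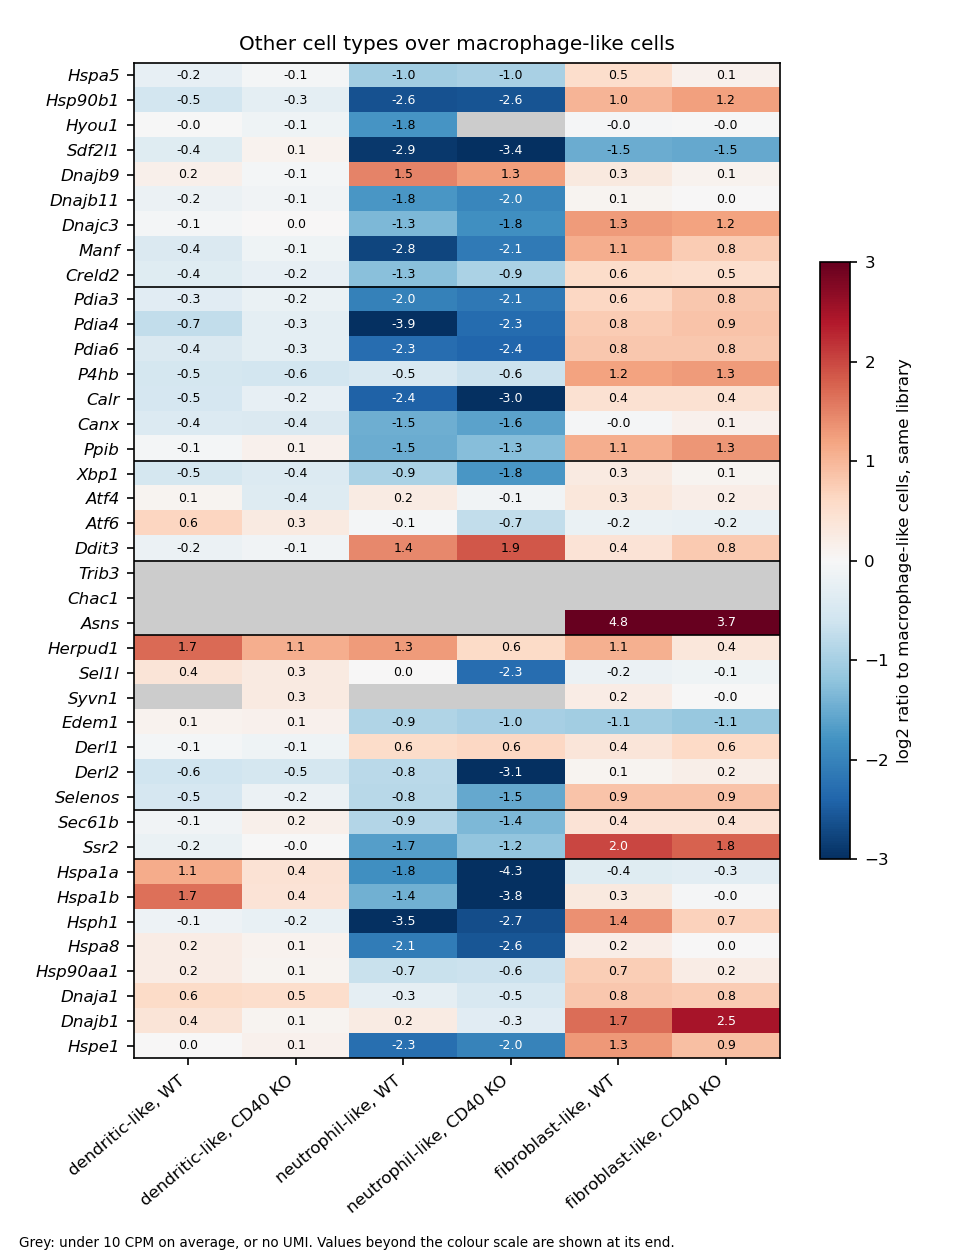
Log2 ratio of CPM in dendritic-like, neutrophil-like and fibroblast-like cells over macrophage-like cells of the same library, for the 40 members. Each cell type has a column for WT and a column for the CD40 KO-labelled library, and grey is under 10 CPM or without a UMI. Neutrophil-like columns are blue except for *Dnajb9*, *Ddit3*, *Herpud1*, *Derl1* and a few values near 0, and fibroblast-like columns are mostly red.

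Within a library the members also varied from barcode to barcode. Macrophage-like barcodes were thinned to 3000 UMIs each, which left out 153 in WT and 53 in the CD40 KO-labelled library. A UMI of *Hspa5* was then seen in 86.5% (85.6 to 87.5) and 81.2% (79.6 to 82.8) of barcodes, and without thinning in 97.9% and 98.1%. *Sdf2l1* was seen in 40.6% (39.3 to 42.0) and 23.5% (21.8 to 25.3), against 75.8% and 67.3% without thinning. *Pdia6* was seen in 62.9% (61.5 to 64.2) and 43.8% (41.7 to 45.8), against 89.8% and 84.6%. In the neutrophil-like barcodes, the type with the least of these genes, the thinned shares were 8.33% of 72 and 0 of 29 barcodes for *Sdf2l1*, where the exact interval of the latter reaches 11.9%. Median depths before thinning were 11898 and 15508 UMIs in macrophage-like barcodes and 3450 and 3349 UMIs in neutrophil-like ones.

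The inducible HSP70 genes were concentrated in few barcodes. At 3000 UMIs 72.2% of WT barcodes and 64.2% of those labelled CD40 KO had no UMI of *Hspa1a* or *Hspa1b*. Barcodes with 10 or more made up 1.45% and 2.46% and held 36.9% and 37.2% of all UMIs of the 2 genes. The variance over the mean of *Hspa1b* was 8.59 and 5.70, above that of 99.7% and 99.4% of genes, where the median gene had 1.06 and 1.09. *Hspa1b* was seen in 8.92% (8.14 to 9.74) of WT barcodes and 17.8% (16.3 to 19.4) of those labelled CD40 KO, against 22.0% and 41.9% without thinning. In neutrophil-like barcodes it was seen in 8.33% and 3.45%. The WT neutrophil-like share has a wide interval (3.12 to 17.3) that holds the macrophage-like one. In all UMIs of the cells *Hspa1b* stood at 20.8 and 10.3 CPM in neutrophil-like cells, below its 56.3 and 139 CPM in macrophage-like cells.

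**Figure D4:**
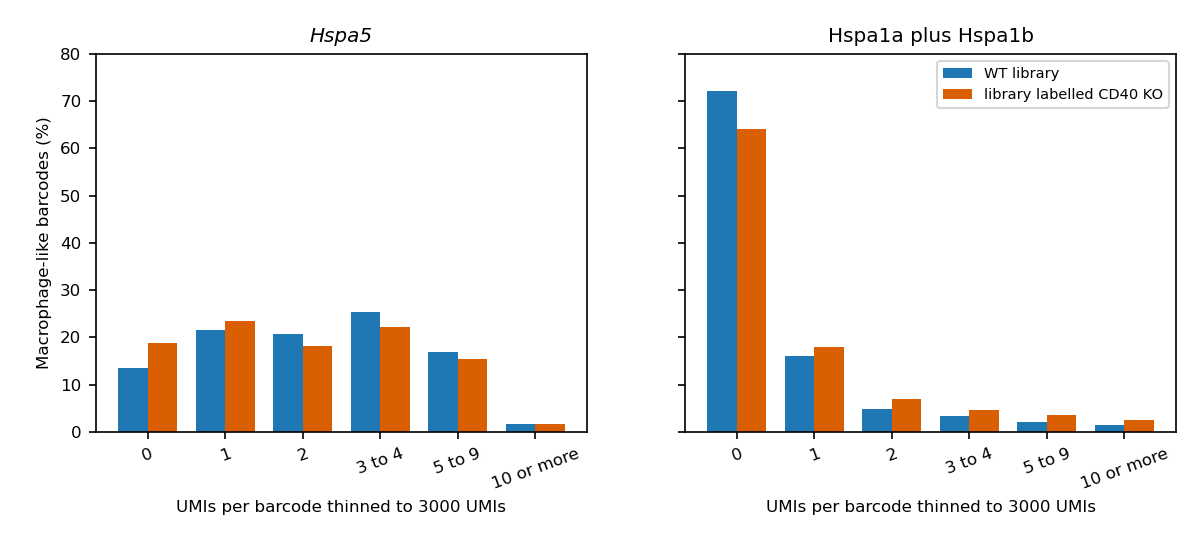
Share of macrophage-like barcodes, in percent, by the number of UMIs per barcode after thinning to 3000 UMIs, for *Hspa5* and for *Hspa1a* and *Hspa1b* together. Bars are the WT library and the CD40 KO-labelled library. *Hspa5* is spread over the bins, while 72.2% and 64.2% of barcodes have no UMI of the HSP70 genes.

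Barcodes with much *Hspa5* also held more of the other ER chaperones. Thinned barcodes with at least 5 UMIs of *Hspa5* (927 in WT and 390 in the CD40 KO-labelled library) were set against those with at most 1 (1744 and 962), and *Hspa5* itself was left out of the count. Of the 36 members measured, 16 were 1.3-fold or more higher in both libraries, against 1.22% of 7150 genes. None was lower, against 80 of the 7150 genes. The 16 were *Hsp90b1*, *Hyou1*, *Sdf2l1*, *Dnajb9*, *Dnajb11*, *Dnajc3*, *Manf*, *Creld2*, *Pdia3*, *Pdia4*, *Pdia6*, *Calr*, *Herpud1*, *Selenos*, *Hspa1a* and *Hspa1b*. Taken within clusters 1, 2 and 3 the counts were 15, 14 and 14 of 36, against 3.81%, 2.88% and 6.43% of genes. The set therefore covered ER folding genes in each cluster. *Atf4* and *Xbp1* were not in it in the class. Their log2 ratios there were −0.029 and 0.47 in WT and 0.15 and 0.28 in the CD40 KO-labelled library. *Xbp1* thus passed 1.3-fold in WT only. Within clusters, *Xbp1* was in the set in cluster 1 and *Ddit3* in cluster 3.

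The difference between the libraries was seen at both ends of this range. *Pdia6* stood at 303 CPM in low and 571 CPM in high barcodes of WT, and at 164 and 301 CPM in the CD40 KO-labelled library. *Sdf2l1* stood at 146 and 298 CPM in WT, and at 73.8 and 125 CPM in the CD40 KO-labelled library. High barcodes of the CD40 KO-labelled library thus held about as much *Pdia6*, and less *Sdf2l1*, as low barcodes of WT. The log2 ratio of high over low barcodes was 0.91 and 0.88 for *Pdia6*, while its level was lower in both kinds of barcode in the CD40 KO-labelled library.

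Barcodes with at least 2 UMIs of *Hspa1a* and *Hspa1b* together (580 and 405) were set in the same way against barcodes with none (3587 and 1460). Of 35 measured members 9 were higher in both libraries, against 4.71% of genes. *Selenos* was the only 1 that was lower, against 177 of 7199 genes. The 9 were *Atf4*, *Atf6*, *Ddit3*, *Herpud1*, *Hsph1*, *Hspa8*, *Hsp90aa1*, *Dnaja1* and *Dnajb1*. *Dnajb1* stood at 50.4 and 105 CPM in low and high barcodes of WT and at 42.9 and 126 CPM in those labelled CD40 KO. *Hspa8* stood at 1352 and 2109 CPM in WT, and at 1131 and 2154 CPM in the CD40 KO-labelled library. *Pdia6* and *Pdia3* were not among them, with log2 ratios of −0.29 and −0.21 in WT. Within clusters 1, 2 and 3 the counts were 7, 7 and 8 of 35, against 7.65%, 7.1% and 8.25% of genes. Lower members there were 3, 2 and 1, against 383 of 6943, 371 of 6941 and 593 of 7079 genes. The members that went with HSP70 in the class were cytosolic chaperones and stress factors, and *Herpud1* was in both sets. The sets were also joined by the genes used to split the barcodes. *Hspa5* was among the higher members here in clusters 2 and 3. *Hspa1a* and *Hspa1b* were in the *Hspa5* set in the class and in clusters 1 and 2.

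**Figure D5:**
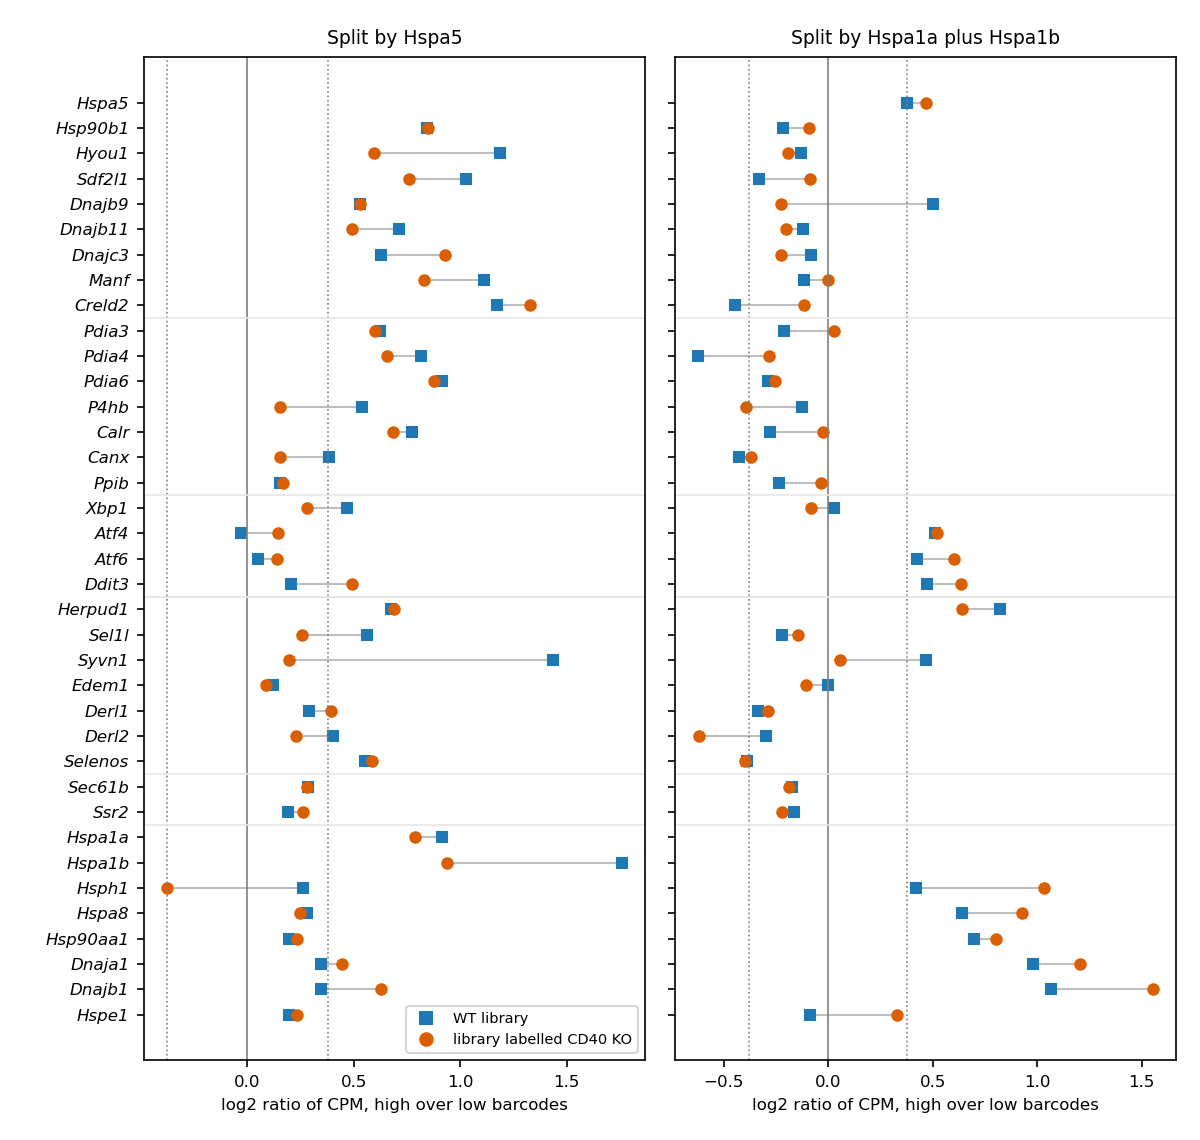
Log2 ratio of CPM in barcodes high over barcodes low in *Hspa5* (left) or in *Hspa1a* plus *Hspa1b* (right), among macrophage-like barcodes thinned to 3000 UMIs. Squares are the WT library and circles the CD40 KO-labelled library, and dotted lines mark 1.3-fold. ER chaperones and isomerases are to the right in the left panel, and cytosolic heat shock genes are to the right in the right panel.

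Further genes of the same pathways, from lists that hold none of the 40, were examined in macrophage-like cells. There 20.1% of all measured genes were higher and 10.6% lower. The lists were also chosen with earlier results of these data known, so their counts are descriptive. For translocation and glycosylation in the ER 10 of 25 measured genes were lower and 2 higher, with a median log2 ratio of −0.12. *Spcs2*, a signal peptidase subunit, stood at 244 CPM in WT and at 142 CPM in the CD40 KO-labelled library, and *Ddost*, an oligosaccharyltransferase subunit, at 132 and 81.6 CPM. *Sec61g* and *Srpr*, of the translocon and the signal recognition particle receptor, had log2 ratios of 0.58 and 0.49. For ER folding 3 of 20 were lower and 1 higher, with *Cnpy2* and *Cnpy3* lowest at −0.79 and −0.44, and *Ero1l*, the oxidase of disulfide isomerases, and *Txndc11* highest at 0.51 and 0.37. For ER-associated degradation 1 of 16 was lower and 3 higher. *Ube2g2* and *Edem3* were highest at 0.65 and 0.61, and *Edem2* and *Rnf5* lowest at −0.47 and −0.33.

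Sensors and control of eIF2α had 2 of 17 higher and 1 lower, with a median of 0.18. *Ern1*, which encodes IRE1, stood at 303 CPM in WT and at 457 CPM in the CD40 KO-labelled library, a log2 ratio of 0.59 (0.57 to 0.62). *Bcl2l11*, a cell death gene, had a ratio of 0.51, and *Bbc3* and *Cebpg* were lowest at −0.64 and −0.37. Among targets of ATF4 8 of 19 were higher and none lower, with a median of 0.25, against the same 20.1% and 10.6% of all genes. *Slc7a11*, the cystine transporter, stood at 116 and 279 CPM, a log2 ratio of 1.26 (1.22 to 1.299), but its ratio was 0.11 in cluster 1, 0.95 in cluster 2 and 0.54 in cluster 3. *Nupr1* had a ratio of 0.59, and *Slc3a2* and *Wars* were lowest at −0.34 and −0.11. In cluster 2, 1 of 19 targets of ATF4 was higher and 3 were lower, against 16.4% and 14.2% of genes.

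Of 32 further heat shock and cytosolic chaperone genes 4 were higher and 1 lower, with a median of −0.12. *Hspb1*, a small heat shock protein, stood at 15.1 and 29.7 CPM, with log2 ratios of 1.78, 1.07 and −0.079 in clusters 1, 2 and 3. *Dnajb4* had a ratio of 0.76, and *Cct8* and *Cct4*, subunits of the chaperonin TRiC, were lowest at −0.48 and −0.34. Set against the shares of all genes, the larger counts in the class were the lower genes of translocation and glycosylation (40% of 25) and the higher targets of ATF4 (42.1% of 19). In ER folding 15% were lower, and in the sensors 11.8% were higher. Within clusters 1, 2 and 3, 28%, 36% and 12% of translocation and glycosylation genes were lower, against 7.01%, 14.2% and 8.91% of genes. Of the targets of ATF4 31.6%, 5.26% and 11.1% were higher there, against 13.8%, 16.4% and 10.5%. Both lists were thus near the share of all genes in cluster 3.

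The 8 members that hold an ERSE had log2 ratios from −0.97 for *Pdia6* to 0.34 for *Syvn1*. Of these 8, 3 were at least 1.3-fold lower, none was higher, and the median was −0.30. The only other measured gene with the element, *Hnrnpa3*, stood at 513 and 504 CPM. The 2 members with an ERSE-II went in opposite directions, *Dnajb11* to −0.65 and *Herpud1* to 0.68. *Sdf2l1* and *Pdia3*, which were among the lowest, held no full match to any pattern in the windows used here. Forms that differ in a fixed letter were not searched, so these windows may hold looser ones. Genes with the same element thus differed unequally between the libraries.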

How the data were processed

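Libraries were prepared with Chromium 3′ v3 chemistry, according to the protocols in the labels. The deposited matrices give raw UMI counts for every gene in every barcode, and per the file headers Cell Ranger 7.0.1 wrote them. Per the submitters' processing notes, Cell Ranger and STAR were run on mm10, with no versions named there. The sources used here do not say if intronic reads entered the counts.

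Barcodes were kept at 1000 or more UMIs, 500 or more genes and up to 10% mitochondrial UMIs (8094 and 7930). Scrublet in scanpy 1.11.5 marked 16 and 0 barcodes on its own threshold, which was not used. The highest scores were removed at 0.8% per 1000 barcodes instead (903 and 531). Both libraries were clustered together (2000 variable genes without the members, 30 principal components, 15 neighbours, Leiden resolution 0.6), which gave 15 clusters. Clusters were named from marker lists, and the limits that left clusters 5, 6, 8 and 13 unnamed were chosen once the clusters were known. Endothelial-like cells had 12 barcodes in the CD40 KO-labelled library and were not compared between libraries.

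UMIs were summed by cell group and library and scaled to CPM, with exact Poisson, conditional binomial and binomial (Clopper-Pearson) intervals. The ratios were tested on simulated data. *Ddit3* had 2 feature rows, of which the one without UMIs was not used. Transcript ends came from GENCODE vM21, and the authors may have counted on other models. Full values were given for 13 fixed members and for every member past 1.3-fold in macrophage-like cells, and the 2 highest and 2 lowest genes of each further list were named. UMI counts were compared for 1 gene between cells, not between genes. Members and lists were chosen with earlier results of these data known. Alternatives changed scaling, floor, fold, cluster and barcode weights, filters, doublets, depth, clustering and the clusters in the class, and 5 of them were added after the data were seen. Scripts ran on Python 3.11.15 with matplotlib 3.10.9, igraph 0.11.9, scikit-learn 1.9.0, pandas 2.3.3, scipy 1.17.1 and numpy 2.4.6.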

Additional observations from a re-analysis of the deposited data

Results flagged for a closer look

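*Hspa1a* went in opposite directions between the libraries in different macrophage-like clusters. Its log2 ratio, CD40 KO over WT, was 1.22 in cluster 1 (*Fabp5*, *Gpnmb*, *Lpl*), −0.44 in cluster 2 (*Plac8*, *Ly6c2*) and 0.41 in cluster 3 (*Mrc1*, *Arg1*). With 1 library in each group the difference between clusters was not tested.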

How the results depend on the processing

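Of the 19 alternatives run on macrophage-like cells, 16 can change the ratio of a gene, while a floor or a fold limit cannot. Each of the 9 lower members and *Herpud1*, *Hspa1b* and *Hsph1* stayed past 1.3-fold under these 16, and *Hspa1a* under 12. With a floor of 50 CPM 8 members were counted as lower. No called value changed sign under these alternatives. The median log2 ratio of the members was −0.21 with median-of-ratios scaling, −0.064 with cluster shares made equal, −0.16 with a marker gate for each barcode and −0.16 with clusters 6 and 13 added. At 1.5-fold 2 members were higher in the class and 7 lower, against 9.02% and 3.49% of all genes. At that fold 3 were lower in cluster 1, against 1.98%, none (0) was higher in cluster 2, against 6.57%, and 3 were lower in cluster 3, against 2.37%. In both libraries 1 member was higher and 0 were lower in dendritic-like than in macrophage-like cells, against 7.56% and 6.92%, and 2 were higher in neutrophil-like cells, against 17.7%. With median-of-ratios scaling 1 member was higher in cluster 2, against 12.5%, 5 were higher in fibroblast-like cells between libraries, against 22.4%, and 2 were lower in dendritic-like than in macrophage-like cells, against 12.1%. The cause of these moves was not tested, apart from the stricter fold. No paired analysis was possible because each group has 1 library. Depth limits *Trib3*, *Chac1*, *Asns* and the neutrophil-like values, and intervals do not cover differences between mice.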

Other observations

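Endothelial-like cells of WT (204 barcodes) held *Hspa1a* at 649 CPM and *Hspa1b* at 384 CPM. In cluster 8 *Hspa1a* stood at 383 CPM in WT and at 749 CPM in the CD40 KO-labelled library. In cluster 13 of the latter *Hspa8* stood at 2096 CPM.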
